A study of Mus musculus with 6 samples.

Results

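The Krüppel-like factors are transcription factors with zinc fingers that are named after the fly gap gene Krüppel. The 9 genes described here, Klf2, Klf3, Klf4, Klf6, Klf7, Klf9, Klf10, Klf13 and Klf16, were taken from the annotated expression table by a list of gene symbols, with no threshold on their values. All 9 were found among the 16111 genes of that table, which holds 13 Klf genes in all. The remaining 4 were Klf1, Klf5, Klf8 and Klf11, and Klf12, Klf14, Klf15 and Klf17 were not among its genes.

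Transcript levels were compared between macrophages of wild-type and of AhRR-/- fetuses, called Ahrr-deficient below, with 3 libraries in each group. AhRR represses AhR, the aryl hydrocarbon receptor, which turns on genes when a small molecule binds to it. Both groups were of the strain C57BL/6 RCC. Their cells were taken from fetal liver at E13.5, in mid-gestation, and cultured over 5 weeks with GM-CSF (2%), which supports the growth of myeloid cells, and the labels give no other treatment. The non-adherent cells were collected, so the libraries describe a cultured population and not the fetal liver itself. The labels number a mouse from 1 to 3 in each group. They do not say whether a culture came from 1 fetus or from several, how the Ahrr allele was made, or whether the groups were littermates.

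Krüppel-like factors bind GC-rich sequences and CACCC boxes in promoters, which they share with the related Sp factors. Their zinc fingers are alike, and the rest of the protein differs and recruits either activating or repressing partners. Klf2, Klf4, Klf6 and Klf7 are known mainly as activators, Klf3 represses through the co-repressor CtBP, and Klf9, Klf10, Klf13 and Klf16 bind Sin3 co-repressors. In macrophages, Klf2 is known for restraining inflammatory genes, Klf4 for monocyte differentiation and alternative activation, and Klf6 for promoting inflammatory genes.

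Library totals ranged from 3556106 counts in Ahrr-deficient replicate 1 to 41668336 in Ahrr-deficient replicate 2, so low genes were measured least precisely in the former. Wild-type replicate 2 stood apart in ribosomal RNA, with 5.28% of its counts on CT010467.1 against at most 0.0679% in the other 5 libraries. Mitochondrial genes took 1.81% to 2.47% of the counts. Ahrr itself had 48.9, 50.1 and 55.2 normalized counts in wild-type and 23.4, 26.2 and 12.6 in Ahrr-deficient libraries. Its groups did not overlap, and it was lower by edgeR's quasi-likelihood test (log2 fold change -1.21, SE 0.26, adjusted p = 0.0151). That call was lost without wild-type replicate 1 (adjusted p = 0.0631) or 3 (adjusted p = 0.0502). Ahrr transcripts were thus still counted in the libraries labelled Ahrr-deficient. The labels do not say which part of the gene was deleted, so its count is a limited check of the labels. All 10 macrophage markers examined, among them Adgre1, Csf1r, Cd68 and Lyz2, were present in the table.

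Of the 9 Klf genes, Klf4, Klf6 and Klf9 were higher in Ahrr-deficient macrophages, each by about 1.5-fold to 1.6-fold, and no member was lower. The other 6, Klf2, Klf3, Klf7, Klf10, Klf13 and Klf16, did not pass the test. A gene was called at a Benjamini-Hochberg adjusted p under 0.05 in edgeR's quasi-likelihood test over 11408 tested genes, and all 9 members were among the tested genes. Over all tested genes 9.62% were called higher and 9.95% lower. At an unadjusted p under 0.05 the members counted were again 3 higher and 0 lower, and DESeq2 and limma-voom each called 3 higher and 0 lower. Of all 11408 tested genes DESeq2 called 970 higher and 1027 lower, and limma-voom called 1320 higher and 1429 lower. The count over all genes at an unadjusted p is not given here, so unadjusted counts of members and lists have no share beside them. The median log2 fold change was 0.08 over the members and 0.01 over all tested genes. In bulk samples such as these, fewer cells of a type and less RNA per cell cannot be told apart.

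**Figure D1:**
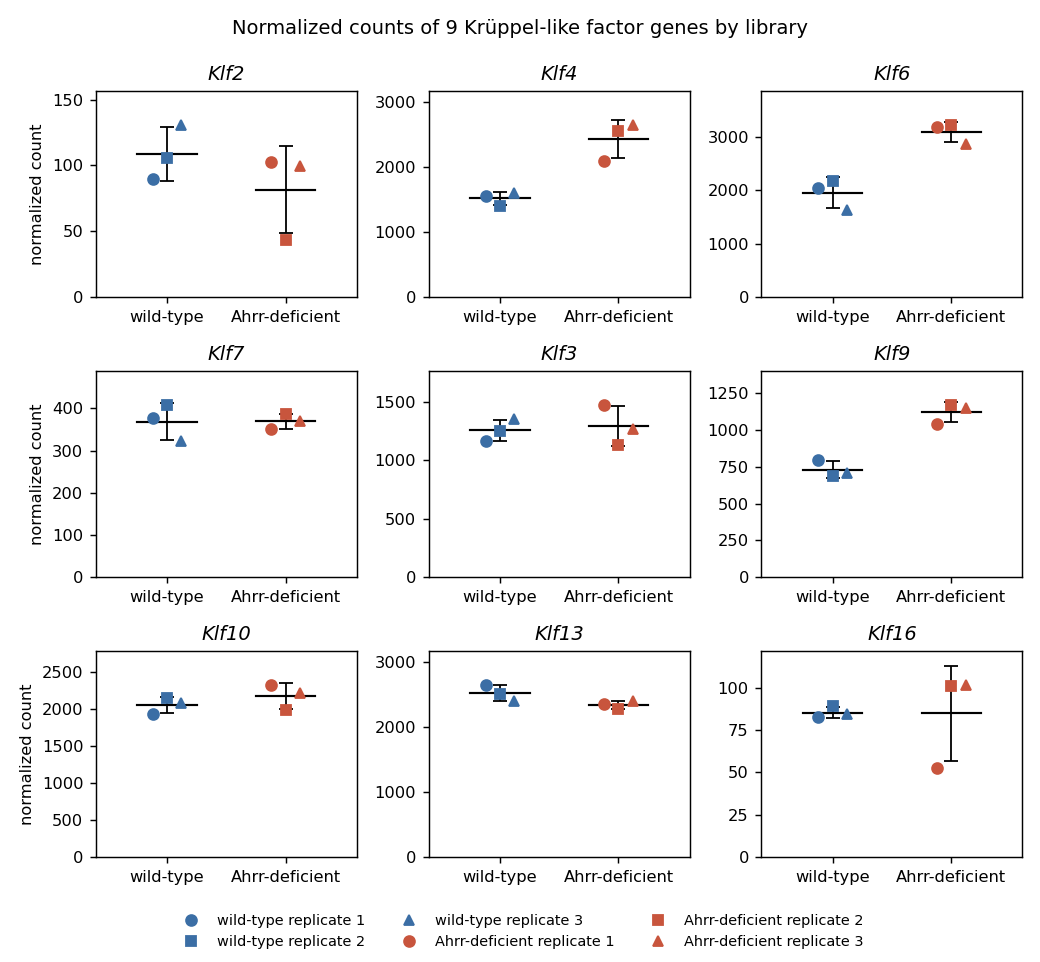
Normalized counts (vertical axes, each from 0) of the 9 Klf genes in 3 wild-type (blue) and 3 Ahrr-deficient (red) libraries. Points are libraries, lines are group means and bars are 1 SD. Klf4, Klf6 and Klf9 lie higher in every Ahrr-deficient library than in any wild-type library, while Klf2, Klf7, Klf3, Klf10 and Klf16 overlap.

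The promoters of the 3 genes that rose are shown first because AhR acts through a short DNA core, the xenobiotic response element. Each is the sequence of 250 bases before the gene's annotated start, from RefSeq on build GRCm38.p6, written 5′ to 3′ on the gene's strand. Capitals mark the core GCGTG, on either strand, so that it reads CACGC where it lies on the other strand.
Klf4, chr4:55532476-55532725, minus strand: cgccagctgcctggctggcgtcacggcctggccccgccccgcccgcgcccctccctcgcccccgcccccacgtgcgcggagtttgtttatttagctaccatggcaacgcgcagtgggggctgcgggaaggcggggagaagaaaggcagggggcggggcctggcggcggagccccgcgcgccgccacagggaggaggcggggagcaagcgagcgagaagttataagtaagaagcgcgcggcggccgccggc
Klf6, chr13:5861239-5861488, plus strand: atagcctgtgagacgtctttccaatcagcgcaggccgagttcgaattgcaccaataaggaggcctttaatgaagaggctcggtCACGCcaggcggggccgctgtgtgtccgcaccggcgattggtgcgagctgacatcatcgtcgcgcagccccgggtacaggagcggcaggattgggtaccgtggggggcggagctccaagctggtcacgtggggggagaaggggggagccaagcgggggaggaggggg
Klf9, chr19:23140976-23141225, plus strand: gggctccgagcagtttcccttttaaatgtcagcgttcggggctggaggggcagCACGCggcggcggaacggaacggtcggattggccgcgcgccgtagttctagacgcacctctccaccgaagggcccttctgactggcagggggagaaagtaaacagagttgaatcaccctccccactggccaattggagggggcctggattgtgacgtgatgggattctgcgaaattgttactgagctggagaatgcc
The Klf4 window held no core, while Klf6 held 1 core at 167 bases and Klf9 held 1 core at 197 bases before the start. A match of these letters is a description of the sequence and not a site shown to be bound.

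RefSeq entries were matched for 7 of the 9 members, all but Klf10 and Klf16. Some RefSeq starts differ from the gene coordinates given below for each gene. The windows of Klf2, Klf3, Klf6 and Klf11 run past the start given there, and that of Klf7 lies inside the gene. The core GCGTG was found in 4 of the 7 windows (Klf3, Klf6, Klf9 and Klf13) and in 28.2% of 32851 promoter windows of the same length. It was therefore found in promoters of 2 members that rose and of 2 that did not pass the test, and the window of Klf11, a Klf gene outside the 9 that was lower, held 3 cores. The GC box GGGCGG, a sequence type that the family itself binds, was found in 6 of 7 windows, all but that of Klf9, against 32.7% of all windows. The CACCC box CCACCC was found in 4 of 7 (Klf2, Klf3, Klf7 and Klf13) against 28.1%. The cAMP response element TGACGTCA was found in none of the 7 and in 1.55% of all windows, and its shorter core TGACG in 4 of 7 (Klf2, Klf4, Klf9 and Klf13) against 17.8%. The CArG box, bound by serum response factor, was in none of the 7 against 1.47%, and the MEF2 box was found in 1 of 7, that of Klf2, against 2.92%. All motifs were searched on both strands. In the Klf13 window 1 CACCC box and 1 GC box shared bases. Member windows held 59.2% to 78.4% G and C, with a median of 71.2% against 52.4% over all windows, and the GC-rich motifs were not compared with windows matched for base composition.

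Klf4 is a monocyte differentiation factor and is also known as a reprogramming factor of stem cells (build GRCm38, chr4:55527143-55532466, minus strand). It had 1548, 1405 and 1597 normalized counts in wild-type replicates 1, 2 and 3 and 2095, 2555 and 2641 in Ahrr-deficient replicates 1, 2 and 3. Every Ahrr-deficient library was above every wild-type library, and the wild-type libraries were close together. The mean was 1517 ± 99.5 (SD, n = 3) in wild-type and 2431 ± 294 (SD, n = 3) in Ahrr-deficient cells. Klf4 was thus 1.61-fold higher, with a 95% interval of 1.37 to 1.88 (log2 difference 0.68, SE 0.10, adjusted p = 0.00425 in edgeR). The fold change of Klf4 lay at percentile 95.4 of all tested genes.

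Klf6 encodes an activator that was first described as a core promoter-binding factor (chr13:5861482-5870394, plus strand). It had 2052, 2182 and 1629 normalized counts in wild-type and 3193, 3223 and 2876 in Ahrr-deficient libraries. The groups did not overlap, and the lowest value of all was that of wild-type replicate 3. The mean rose from 1954 ± 289 to 3097 ± 192 (SD, n = 3 each), 1.59-fold with a 95% interval of 1.31 to 1.91. On the log2 scale Klf6 rose by 0.66 (SE 0.12, adjusted p = 0.00758 in edgeR), at percentile 95.1 of all tested genes.

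Klf7 is the closest relative of Klf6 and is best known from neurons and fat cells (chr1:64029447-64122282, minus strand). It had 376, 408 and 322 normalized counts in wild-type and 351, 387 and 369 in Ahrr-deficient libraries. All 3 Ahrr-deficient values lay within the wild-type range. Both means were 369, with an SD of 43.3 in wild-type and 17.9 in Ahrr-deficient cells (n = 3 each). The fold change of Klf7 was 1.01 with a 95% interval of 0.852 to 1.19 (edgeR adjusted p = 0.949), an interval that leaves out a rise as large as those of Klf4 and Klf6. Exons of Gm26649 and Gm13748 overlap Klf7 on the other strand, and whether reads were counted by strand is not given in the sources used here.

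Klf2 is an activator close in sequence to Klf4 (chr8:72319033-72321656, plus strand), and it was among the lowest members. It had 90.0, 106 and 131 normalized counts in wild-type and 102, 43.3 and 99.4 in Ahrr-deficient libraries. The low value came from Ahrr-deficient replicate 2, the deepest library, where it rested on 177 counts. The other 2 Ahrr-deficient libraries lay within the wild-type range. The mean was 109 ± 20.5 in wild-type and 81.7 ± 33.3 in Ahrr-deficient cells (SD, n = 3 each). The ratio fitted by edgeR, which is not the ratio of these means, was 0.675 with a 95% interval of 0.401 to 1.14 (adjusted p = 0.255). Without Ahrr-deficient replicate 2 the log2 fold change of Klf2 went from -0.57 to -0.08 (edgeR adjusted p = 0.831).

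Klf3, or basic Krüppel-like factor, is the CtBP-dependent repressor among the members (chr5:64803388-64832901, plus strand). It had 1169, 1251 and 1353 normalized counts in wild-type and 1475, 1136 and 1272 in Ahrr-deficient libraries. The highest and the lowest library were both Ahrr-deficient. The mean was 1258 ± 91.8 in wild-type and 1294 ± 171 in Ahrr-deficient cells (SD, n = 3 each). The fold change was 1.02 with a 95% interval of 0.861 to 1.22 (edgeR adjusted p = 0.861). The gene model Gm20033 overlaps exons of Klf3 on the other strand.

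Klf9 was the member of the Sin3-binding repressors that rose (chr19:23141226-23168134, plus strand). It is known as a gene that glucocorticoid and thyroid hormones induce. It had 796, 688 and 707 normalized counts in wild-type and 1042, 1168 and 1149 in Ahrr-deficient libraries. The groups did not overlap, with a gap between them of more than the range within either. The mean rose from 730.4 ± 58.0 to 1120 ± 68.1 (SD, n = 3 each), 1.53-fold with a 95% interval of 1.34 to 1.76. On the log2 scale Klf9 rose by 0.62 (SE 0.09, adjusted p = 0.00357 in edgeR), at percentile 94.3 of all tested genes.

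Klf10, a gene known for its rapid induction by TGF-beta, did not pass the test (chr15:38291463-38300706, minus strand). It had 1934, 2145 and 2073 normalized counts in wild-type and 2318, 1979 and 2218 in Ahrr-deficient libraries. The groups overlapped, since Ahrr-deficient replicate 2 lay below wild-type replicates 2 and 3. The fold change of Klf10 was 1.06 with a 95% interval of 0.917 to 1.22 (edgeR adjusted p = 0.561).

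Klf13, first described in T cells as a regulator of the chemokine gene Ccl5, was the member with the highest normalized count in wild-type cells (chr7:63886351-63938915, minus strand). It had 2641, 2505 and 2395 normalized counts in wild-type and 2347, 2272 and 2394 in Ahrr-deficient libraries. The groups did not overlap, but the lowest wild-type and the highest Ahrr-deficient value differed by less than 1 normalized count. The ratio of Klf13 was 0.930 with a 95% interval of 0.820 to 1.05 (edgeR adjusted p = 0.381).

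Klf16, described as a repressor of dopamine receptor genes in the brain, was the other member of low count (chr10:80567124-80577321, minus strand). It had 82.7, 89.0 and 84.2 normalized counts in wild-type and 52.7, 101 and 102 in Ahrr-deficient libraries. The low value, in the shallowest library, rested on 18 counts. The Ahrr-deficient libraries lay on both sides of the narrow wild-type range. The fold change of Klf16 was 1.08 with a 95% interval of 0.789 to 1.48 (edgeR adjusted p = 0.724), an interval that holds 1 and is wider than that of any other member except Klf2.

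**Figure D2:**
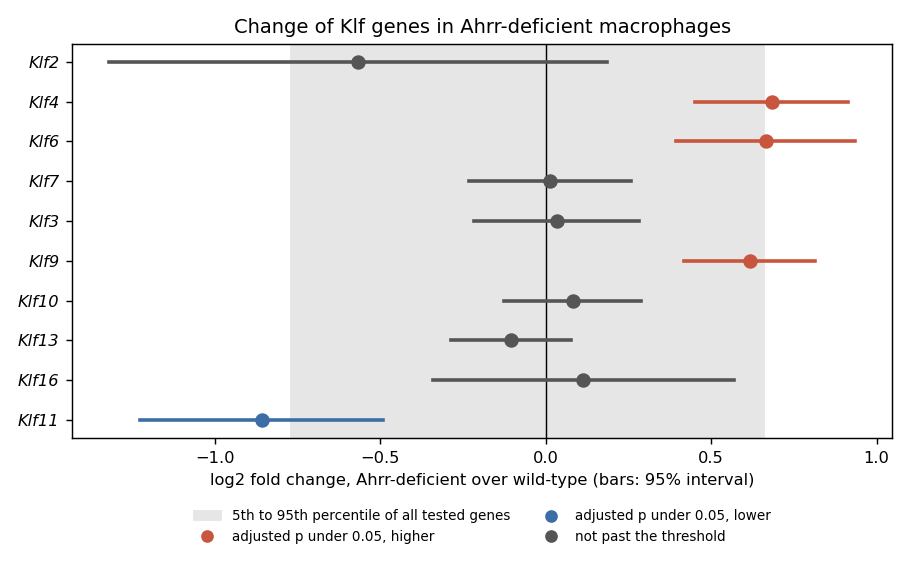
Log2 fold change (Ahrr-deficient over wild-type) of the 9 members and of Klf11, with 95% intervals (bars) from edgeR's quasi-likelihood test and, in grey, the range between the outer percentiles named in the key over all tested genes. Klf4, Klf6 and Klf9 lie between 0.62 and 0.68 and Klf11 at -0.86, and the intervals of the other 6 members include 0.

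Non-overlap of the groups was seen for 4 of the 9 members, 3 higher and 1 lower in Ahrr-deficient cells. Among all tested genes 38.6% had groups that did not overlap, 19.1% with the Ahrr-deficient group higher and 19.5% with it lower.

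Among Klf genes outside the 9, Klf11 was the only one tested. Klf11 is a Sin3-binding repressor and the closest relative of Klf10 (chr12:24651274-24662789, plus strand). It had 198, 182 and 260 normalized counts in wild-type and 143, 112 and 109.9 in Ahrr-deficient libraries. The groups did not overlap, and Klf11 was lower (log2 fold change -0.86, SE 0.16, edgeR adjusted p = 0.00912). Its ratio was 0.552 with a 95% interval of 0.428 to 0.712, which does not overlap the interval of Klf10. Within the Sin3-binding genes of the family the test thus called Klf9 higher and Klf11 lower, and did not call Klf10, Klf13 and Klf16. Klf1, the erythroid factor, had 0 to 6 counts in a library, Klf5 had 0 to 8 and Klf8 had 0 to 4, and these 3 genes were left out of the test by the filter on low counts.

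Levels were compared between members as normalized counts per kilobase of exon. In wild-type cells the order of the mean levels per kilobase was Klf4 (497), Klf10 (491), Klf6 (445), Klf13 (334), Klf9 (152), Klf3 (112), Klf2 (58.9), Klf7 (45.4) and Klf16 (31.9). Klf4, Klf10 and Klf6 overlapped, since their libraries ranged from 461 to 524, from 463 to 513 and from 371 to 497 per kilobase. The ranges of Klf2 and Klf7 also overlapped, at 48.7 to 70.7 and 39.6 to 50.2, but within each wild-type library Klf2 lay above Klf7. In Ahrr-deficient cells the order was Klf4 (797), Klf6 (705), Klf10 (520), Klf13 (310), Klf9 (233), Klf3 (115), Klf7 (45.4), Klf2 (44.2) and Klf16 (31.8). Klf2 was below Klf7 in Ahrr-deficient replicate 2 alone (23.4 against 47.6). It was above Klf7 in Ahrr-deficient replicates 1 (55.5 against 43.2) and 3 (53.8 against 45.4). Klf10 there lay at 473 to 555 per kilobase, below every library's value of Klf4 (687 to 866) and of Klf6 (655 to 734). The levels rest on the union of exons in the annotation matched here, and transcript forms with other ends would move them.

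**Figure D3:**
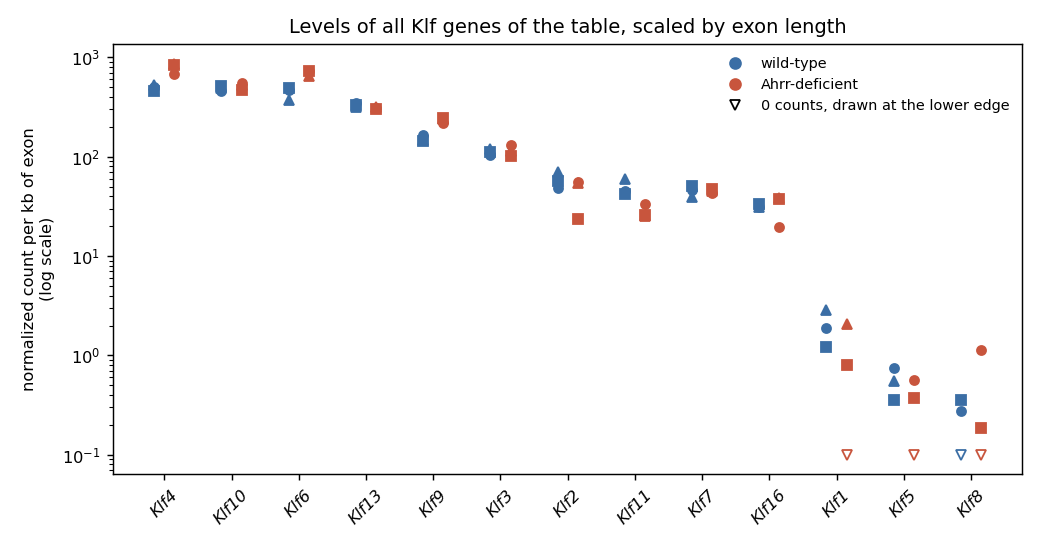
Normalized counts per kilobase of exon (log axis) of the Klf genes in wild-type (blue) and Ahrr-deficient (red) libraries. Points are libraries, with circles, squares and upright triangles for replicates 1, 2 and 3 and open triangles for 0 counts. Klf4, Klf10 and Klf6 overlap at the top in wild-type cells, and Klf4 and Klf6 lie above Klf10 in Ahrr-deficient cells.

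Ratios of close relatives within a library do not depend on how libraries were scaled. The Klf6 to Klf7 count ratio was 5.45, 5.34 and 5.04 in wild-type and 9.06, 8.33 and 7.78 in Ahrr-deficient libraries. Every Ahrr-deficient ratio was above every wild-type ratio, by 0.67 on the log2 scale. The Klf9 to Klf13 ratio was 0.302, 0.275 and 0.295 in wild-type and 0.444, 0.514 and 0.480 in Ahrr-deficient libraries, a log2 difference of 0.72 with no overlap. The Klf2 to Klf4 ratio was 0.0583, 0.0758 and 0.0822 in wild-type and 0.0495, 0.0170 and 0.0378 in Ahrr-deficient libraries, a log2 difference of -1.17 with no overlap. Without Ahrr-deficient replicate 2 that difference was -0.72, and it was -1.49 without Ahrr-deficient replicate 1. For each of the 3 ratios the two-sided exact permutation p was 0.1, the smallest that 3 against 3 libraries can give. Each ratio used a pseudocount of 0.5 counts. Each also holds a member that was called higher, so it is not independent of that member's rise. How often ratios of other gene pairs do not overlap was not computed.

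The genes whose profile over the 6 libraries was most like that of Klf4, the member with the largest rise, were Trio, Dennd3 and Pi4ka. Likeness was the root-mean-square difference of log2 CPM centred on each gene's mean, over 10033 genes with a mean of at least 50 counts. It was 0.0302 for Trio, a guanine nucleotide exchange factor, 0.0430 for Dennd3, and 0.0451 for Pi4ka, a phosphatidylinositol kinase. Klf9 ranked at 39 among these genes (0.0898) and Klf6 at 957 (0.226), so the profile of Klf4 was closer to that of Klf9 than to that of Klf6. No member passed the test as lower, so no gene was sought for a fall.

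Genes that act with the family were described by lists (the plot of list members shows 7 of them). Over all 11408 tested genes edgeR called 19.6%, 9.62% as higher and 9.95% as lower. When 1 library was left out, that count moved from 694 of 11427 (without wild-type replicate 1) to 3857 of 11837 (without Ahrr-deficient replicate 1). List counts of those fits are to be read beside these totals. Among its Sp relatives, 4 of 9 listed genes were tested (Sp1, Sp2, Sp3 and Sp4) and edgeR called 0. At an unadjusted p under 0.05 the count was 0, DESeq2 and limma-voom called 0, and the median log2 fold change was 0.07. Of 12 tested co-repressors that Klf proteins recruit, 1 rose and 1 fell, with a median of 0.06, so the list held no excess of calls. Rcor1, a scaffold of the CoREST complex, had 774, 767 and 771 normalized counts in wild-type and 972, 1166 and 1188 in Ahrr-deficient libraries (log2 fold change 0.53, edgeR adjusted p = 0.00629). Sin3b, a partner of the Sin3-binding members, changed by -0.33 on the log2 scale (edgeR adjusted p = 0.0236). The Sin3b call was lost without any 1 of the wild-type libraries or Ahrr-deficient replicate 2 (adjusted p = 0.0578 to 0.116). Without Ahrr-deficient replicate 1 the list held 5 calls, in a fit that called 3857 of 11837 genes. Of 4 tested coactivators, among them Ep300 and Crebbp, edgeR called 0. The count at an unadjusted p under 0.05 was 0, DESeq2 and limma-voom called 0, and 1 was called without Ahrr-deficient replicate 1.

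The ERK5 pathway and MEF2 factors are known to induce Klf2 and Klf4. Of 7 tested genes of that input, 0 rose and 3 fell, against 9.62% and 9.95% of all tested genes. The list had a median log2 fold change of -0.33. At an unadjusted p under 0.05 edgeR had 0 higher and 4 lower, and DESeq2 and limma-voom each called 0 higher and 3 lower. Mef2d had 1882, 1924 and 1854 normalized counts in wild-type and 1314, 1269 and 1290 in Ahrr-deficient libraries. It fell by 0.55 on the log2 scale with no overlap of the groups (edgeR adjusted p = 0.00252). Mef2c, which had 42.1 to 58.1 normalized counts in wild-type and 19.6 to 26.3 in Ahrr-deficient cells, changed by -1.21 (edgeR adjusted p = 0.00823). Map3k3, a kinase upstream of ERK5, changed by -0.33 (edgeR adjusted p = 0.0430). The Mef2c call was lost without wild-type replicate 1 or Ahrr-deficient replicate 2 (adjusted p = 0.0620 to 0.0760). The Map3k3 call was lost without any 1 library except Ahrr-deficient replicate 1 (adjusted p = 0.0885 to 0.141). Without wild-type replicate 1 or Ahrr-deficient replicate 2 the list held 1 call, and without Ahrr-deficient replicate 1 it held 4. Over all genes these fits called 694, 948 and 3857, in that order. Of 8 tested ubiquitin ligases known to act on Klf proteins, Smurf1 alone was called, higher by 0.59 on the log2 scale (edgeR adjusted p = 0.0372). Over all tested genes 19.6% were called, so the list held no excess of calls. Leaving out any 1 library except Ahrr-deficient replicate 1 ended the Smurf1 call (adjusted p = 0.0897 to 0.124), and its log2 fold change was 0.35 without Ahrr-deficient replicate 2. The list held 4 calls without Ahrr-deficient replicate 1, 3 with GC offsets, and 2 with limma-voom or with no filter on low counts. Over all genes these fits called 3857, 2021, 2749 and 2859, in that order.

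Immediate-early genes are induced within minutes of many stimuli, as several Klf genes are. Of 16 tested, 2 rose and 9 fell, against 9.62% and 9.95% of all tested genes, with a median log2 fold change of -0.96. Fos, a subunit of AP-1, had 3458, 3808 and 4296 normalized counts in wild-type and 881, 606 and 621 in Ahrr-deficient libraries. The groups of Fos were far apart, by -2.48 on the log2 scale (edgeR adjusted p = 0.000308). Btg2, an antiproliferative gene, changed by -1.86 (edgeR adjusted p = 0.00101), and Myc, a growth regulator, by 2.37 in the other direction (edgeR adjusted p = 0.00184). Klf4 and Klf6 are commonly induced along with these genes. In the Ahrr-deficient libraries Klf4 and Klf6 were higher, while most of the listed immediate-early genes were lower. Any link between these changes was not tested.

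Of 6 tested genes that glucocorticoids induce, 1 rose and 4 fell, against 9.62% and 9.95% of all tested genes. The list had a median log2 fold change of -0.82, while Klf9 rose, and any link between the list and Klf9 was not tested. DESeq2 called 1 higher and 3 lower, and limma-voom called 1 higher and 4 lower. Per1, a clock gene, had 3505, 3153 and 2941 normalized counts in wild-type and 1718, 1685 and 1636 in Ahrr-deficient libraries (log2 fold change -0.93, edgeR adjusted p = 0.00102). Zbtb16 changed by -1.97 (edgeR adjusted p = 0.00711) and Ddit4 by -0.88 (edgeR adjusted p = 0.0228). The gene of this list that rose was Fkbp5, a chaperone of the glucocorticoid receptor, named after its value was seen (log2 fold change 0.76, edgeR adjusted p = 0.00285). The Ddit4 call was lost without any 1 wild-type library or Ahrr-deficient replicate 2 (adjusted p = 0.0608 to 0.145).

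Of 8 tested genes that TGF-beta induces, 2 rose and 3 fell, against 9.62% and 9.95% of all tested genes. The list had a median log2 fold change of -0.14, and Klf10 was not called. DESeq2 called 2 higher and 3 lower, and limma-voom called 1 higher and 3 lower. Tgfbi, an extracellular matrix protein, had 21.8, 9.27 and 31.9 normalized counts in wild-type and 43.9, 122 and 176 in Ahrr-deficient libraries (log2 fold change 2.50, edgeR adjusted p = 0.00711). Bambi, a decoy receptor, changed by -1.87 (edgeR adjusted p = 0.0111), a call lost without Ahrr-deficient replicate 2 (adjusted p = 0.112). Bambi was not tested without wild-type replicate 1, after thinning or with a filter at a mean of at least 50 counts. Without wild-type replicate 1 the list held 2 calls, and without wild-type replicate 2 or Ahrr-deficient replicate 2 it held 3. Over all genes these fits called 694, 965 and 948, in that order. The list also held 3 calls after thinning and with a filter at a mean of at least 50 counts. Those settings called 1244 and 1967 of all genes.

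**Figure D4:**
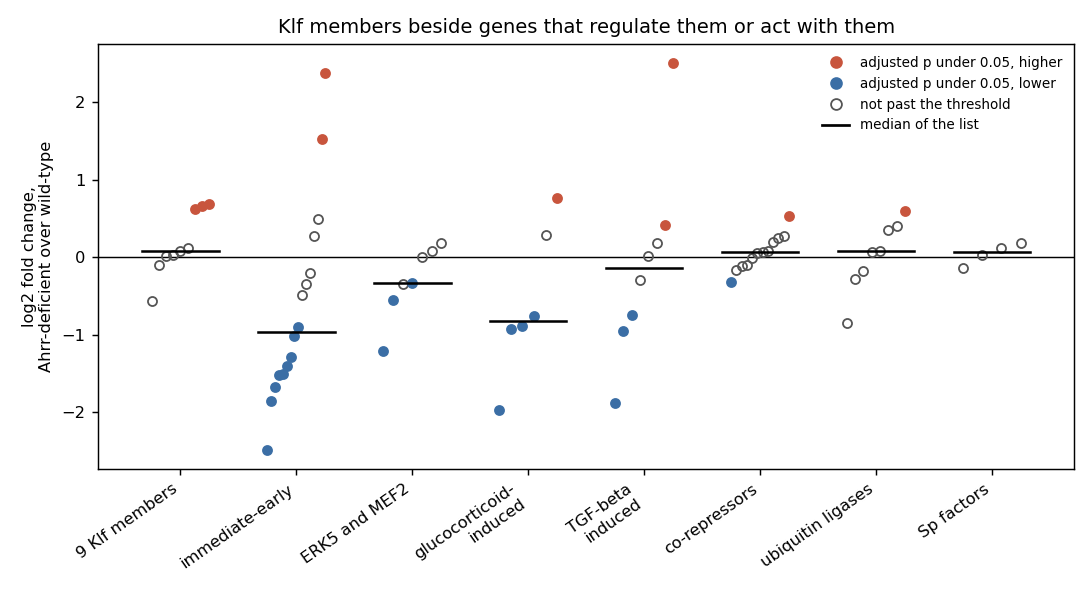
Log2 fold change (Ahrr-deficient over wild-type) of each tested gene of the Klf members and of 7 lists of related genes. Red and blue points passed the edgeR threshold as higher or lower, open points did not, and lines are list medians. The immediate-early list has its median at -0.96 and the glucocorticoid-induced list at -0.82, against 0.08 for the Klf members.

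Genes tied to known roles of Klf2 and Klf4 were described in the same way. Of 8 tested alternative-activation genes, 3 rose and 1 fell, against 9.62% and 9.95% of all tested genes, with a median log2 fold change of 0.07. Ch25h, a cholesterol hydroxylase, had 15.97, 1.85 and 14.5 normalized counts in wild-type and 111, 880 and 478 in Ahrr-deficient libraries (log2 fold change 5.35, edgeR adjusted p = 0.00329). Its value in wild-type replicate 2 was below 3 counts, which is 5.56 normalized counts in that library. Without that library the log2 fold change of Ch25h was 5.08. Clec10a, a lectin, changed by -0.95 (edgeR adjusted p = 0.00239), and Pparg, a lipid-sensing nuclear receptor, by 0.64 (edgeR adjusted p = 0.00736). Of 12 tested genes for the recognition of apoptotic cells, 0 rose and 2 fell in edgeR, where 19.6% of all tested genes were called. The list had a median of -0.44. DESeq2 called 1 higher and 4 lower, limma-voom called 1 higher and 2 lower, and the unadjusted p was under 0.05 for 1 higher and 6 lower. With no filter on low counts the list held 8 calls among 19 genes, since 7 listed genes had been left out of the main test. That setting called 2859 of 24416 features. Thbs1, a bridging matrix protein, changed by -1.44 (edgeR adjusted p = 0.00637) and Stab1, a scavenger receptor, by -1.06 (edgeR adjusted p = 0.0437). The Stab1 call was lost without any 1 wild-type library or Ahrr-deficient replicate 3 (adjusted p = 0.0711 to 0.129). Without Ahrr-deficient replicate 1 the list held 7 calls, in a fit that called 3857 of 11837 genes.

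Of 4 tested genes known as Klf2 targets in endothelial cells and T cells, 1 rose and 2 fell, with a median log2 fold change of -0.21. Over all tested genes 9.62% were called higher and 9.95% lower in edgeR. Thbd, the thrombin receptor thrombomodulin, had 1274, 1663 and 1225 normalized counts in wild-type and 606, 328 and 419 in Ahrr-deficient libraries (log2 fold change -1.68, edgeR adjusted p = 0.00239). Cdkn1a, a cell cycle inhibitor, changed by -0.83 (edgeR adjusted p = 0.00374). These lists mix activated and repressed genes of several factors, and no protein or binding data for Klf members were used here.

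Markers of other cell types were at or near 0 for most types. None of 7 mast cell and basophil markers and none of 6 lymphoid markers were in the table. The summed normalized counts were at most 27.8 for 8 neutrophil markers, 8.7 for 7 erythroid markers, 8.8 for 6 hepatocyte markers and 11.6 for 9 endothelial and stellate markers in any library. Among 7 dendritic cell markers, Clec9a was called higher at 531 to 647 normalized counts in wild-type and 701 to 913 in Ahrr-deficient cells, while Flt3, Cd209a, Ccr7 and Siglech were not in the table. Zbtb46, the other tested dendritic cell marker, went the other way without overlap, at 53.2 to 64.9 in wild-type and 42.9 to 50.2 in Ahrr-deficient cells (log2 fold change -0.32, edgeR adjusted p = 0.228). The summed level of these 7 was 596.6 to 716 in wild-type and 745 to 959.9 in Ahrr-deficient libraries. Of 4 megakaryocyte markers Itga2b alone was in the table, with 29.0 to 31.9 normalized counts in wild-type and 12.6 to 20.5 in Ahrr-deficient libraries, and it was called lower in edgeR but not in DESeq2 (adjusted p = 0.0506). The Clec9a call was lost without any 1 wild-type library or Ahrr-deficient replicate 2 (edgeR adjusted p = 0.0548 to 0.102). The Itga2b call was lost without wild-type replicate 1 or 2 or Ahrr-deficient replicate 2 or 3 (adjusted p = 0.0512 to 0.0997). Of 5 eosinophil markers Siglecf alone was in the table, with 321 to 609.6 normalized counts in wild-type and 559.9 to 658 in Ahrr-deficient libraries, and it was not called. The summed level of the 10 macrophage markers was 262988 to 290228 in wild-type and 170078 to 247211 in Ahrr-deficient libraries, with Csf1r called lower (log2 fold change -0.65, edgeR adjusted p = 0.0304). The Csf1r call was lost without any 1 library except Ahrr-deficient replicate 1 (adjusted p = 0.0725 to 0.104). The part of these differences in the Klf results was not tested.

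The calls for Klf4, Klf6, Klf9 and Klf11 were made in each of 16 alternative analyses of the counts, which changed the scaling, the filter, the tool, the depth or the libraries used. The log2 fold change ranged from 0.62 to 0.78 for Klf4, from 0.54 to 0.75 for Klf6, from 0.54 to 0.68 for Klf9 and from -0.94 to -0.69 for Klf11. The highest adjusted p among these alternatives was 0.0285 for Klf4, 0.0364 for Klf6, 0.0233 for Klf9 and 0.0494 for Klf11. Klf2 ranged from -0.86 to -0.08 and was not called in any of the 16, with adjusted p from 0.0698 to 0.831.

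**Figure D5:**
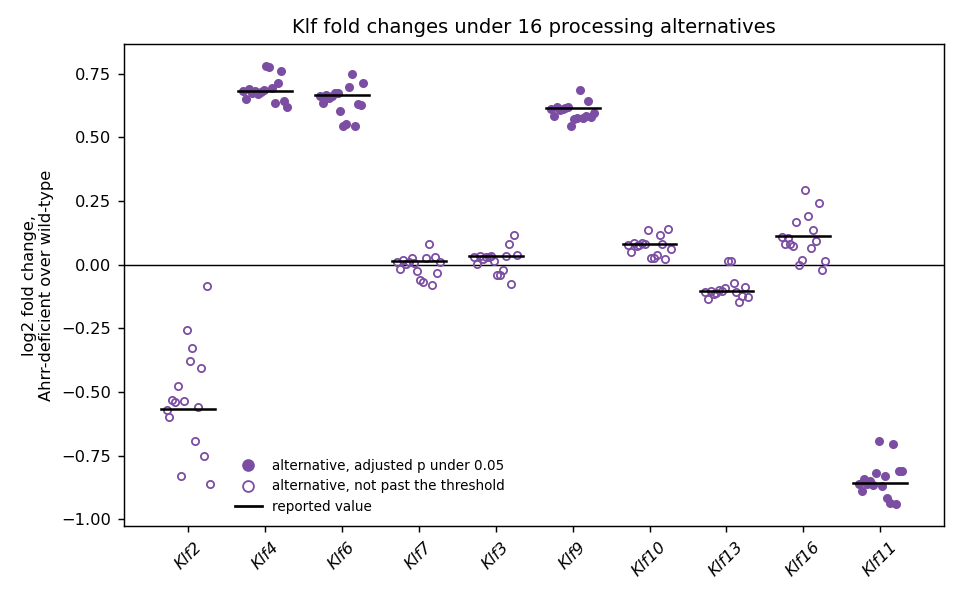
Log2 fold change (Ahrr-deficient over wild-type) of the members and Klf11 under 16 alternative analyses. Filled points passed an adjusted p under 0.05, open points did not, and lines are the reported values. Klf4, Klf6, Klf9 and Klf11 are filled throughout, and Klf2 is spread from -0.86 to -0.08.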

How the data were processed

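RNA from 6 cultures, 100 ng each, was made into TruSeq libraries and read as single 75 bp reads, per the labels' protocols. The submitters' processing notes name CASAVA 1.8.2, fastp 0.20.0, STAR 2.7.10b, SAMtools 1.16.1, R 4.3.1, DESeq2 1.40.2 and build mm10. The counting program, its use of strand and the annotation are not given in the sources used here.

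The authors deposited raw read counts for 53465 features without identifiers and a normalized signal, read counts divided by a size factor per library, for 16111 identified genes. Whole reads were recovered for 100% of the deposited signal values (tolerance 0.01 reads), and all 16111 profiles were equal to rows of the raw table with a total of at least 10 counts. Values printed per library are the deposited normalized counts, and tests used the recovered counts. Unidentified features held 0.0232% to 0.0511% of a library's counts and were left out. GENCODE M21 (release 21, build GRCm38) held 16088 of the 16111 identifiers and gave coordinates and exon lengths.

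The model held genotype alone and was fitted with edgeR 4.0.16 (quasi-likelihood, TMM factors 0.904 to 1.04, filterByExpr) under R 4.3.3. Adjustment by the Benjamini-Hochberg method covered all 11408 tested genes, p-values were two-sided, and biological variation (BCV) was 13.0%. Standard errors came from the fold change and the F statistic. Intervals cover the spread between these 6 libraries only. Replicate pairs differed by more than sampling noise, with a chi-square per degree of freedom of 5.79 to 175. The test was run on simulated data first. Alternatives used DESeq2 1.42.0, limma 3.58.1 (voom), other scalings and filters, a replicate block, GC offsets, thinning and the removal of 1 library at a time.

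The members and the gene lists were chosen with earlier results of these data known. All 9 members were named, and from each of 12 lists up to 3 genes past the threshold with the largest absolute log2 fold change, plus Ahrr and the other Klf genes. Some list genes that this rule names are not reported here, though they are in the counts of their lists.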

Additional observations from a re-analysis of the deposited data

How the results depend on the processing

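None of the calls for Klf4, Klf6, Klf9 and Klf11 was lost under the 16 alternatives. The number of genes past the threshold, 2232 in the reported test, was 1244 after thinning to the smallest total and ranged from 694 (without wild-type replicate 1) to 3857 (without Ahrr-deficient replicate 1) when 1 library was left out. With the replicate number as a block it was 1390, and 1276 with GC offsets and the block. With the block Klf4 (0.68, adjusted p = 0.0108), Klf6 (0.67, adjusted p = 0.00915) and Klf9 (0.62, adjusted p = 0.0130) stayed past the threshold in edgeR, and Bambi did not (adjusted p = 0.0550). Libraries with the same number did not deviate together (r = -0.17, 0.07 and 0.13), so the numbers were not taken to pair them. Besides the left-out libraries, calls of named list and marker genes ended for Ddit4 and Itga2b with DESeq2, for Stab1 with limma-voom, for Stab1, Sin3b, Map3k3 and Csf1r with GC offsets, for Mef2c, Sin3b, Map3k3, Smurf1 and Itga2b after thinning, and for Ddit4, Sin3b, Map3k3, Smurf1 and Itga2b with the block. Bambi and Ddit4 were not tested after thinning, nor, with Mef2c, Itga2b and Ahrr, at a mean of at least 50 counts. Directions turned only for members that were never called. Klf3 was at -0.041 with GC offsets, -0.039 with GC offsets and the block, and -0.077 to 0.12 with 1 library left out. Klf7 was at -0.019 with upper-quartile scaling, -0.025 after thinning, -0.060 with GC offsets, -0.068 with GC offsets and the block, and -0.079 to 0.080 with 1 library left out. Klf13 was at 0.013 with GC offsets and 0.015 with GC offsets and the block, and Klf16 at -0.021 to 0.24 with 1 library left out. The cause was not tested. The members with the fewest counts were Klf2 and Klf16, with 35 and 18 in Ahrr-deficient replicate 1. After thinning Klf2 was at -0.26 and Klf16 at 0.018. Over 11394 genes the log2 fold change was lower at higher transcript GC content (Spearman correlation -0.28). With GC offsets Klf6 went from 0.66 to 0.54, Klf9 from 0.62 to 0.57 and Klf4 from 0.68 to 0.78. Klf2 went from -0.57 to -0.38, Klf10 from 0.08 to 0.03 and Klf16 from 0.11 to 0.29. The cause of that relation was not tested.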
